A study of Arabidopsis thaliana with 6 samples.

Results

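The 45 genes described here make, modify and move glucosinolates in Arabidopsis thaliana. They were chosen by locus identifier, by a rule that uses no measured value, but with earlier results of these data known. All 45 were found on the array, as 54 of 37118 features and 45 of 32627 loci. By pathway branch, 27 belong to the aliphatic branch, 11 to the indole branch and 7 serve both. RNA came from whole Columbia plants, 3 weeks old, that had all grown at 22 °C with 16 h of daily light on agar medium containing kanamycin (30 mg/l). In 3 lines (PAR18-2, PAR9-2 and PAR36-4, called MYBPAR replicates 1, 2 and 3) the plants carried 35S::VvMYBPAR, a grapevine MYB transcription factor behind the 35S promoter, which is active in most plant tissues. The 3 control lines (Cont1-1, Cont2-3 and Cont5-1, called empty vector replicates 1, 2 and 3) carried the vector alone. Since every line is represented by a single culture hybridised to a single one-colour array, the effects of line, culture and array cannot be told apart. The p-values measure the spread between these transgenic lines.

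Glucosinolates are sulfur-rich defence compounds of the cabbage order that myrosinases break down to toxic products when tissue is wounded. Aliphatic glucosinolates of Arabidopsis are built mostly from methionine whose side chain is lengthened in a cyclic pathway, and indole glucosinolates are built from tryptophan. In both branches a CYP79 enzyme turns the amino acid into an oxime, a CYP83 enzyme activates the oxime, and a lyase, a glucosyltransferase and a sulfotransferase finish the core. R2R3 MYB factors, relatives of the introduced grapevine factor, switch on the enzyme genes of each branch.

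No glucosinolate gene passed the test across all features (limma, Benjamini-Hochberg adjusted p, smallest value among the 45 genes 0.915), where 0.00539% of all features passed. The aliphatic genes nevertheless lay slightly higher and most indole genes lower in the MYBPAR lines. A log2 difference is the mean log2 RMA intensity of the 3 MYBPAR arrays minus that of the 3 empty vector arrays. It was above 0 for 26 of 27 aliphatic genes, with a median of 0.20, and for 4 of 11 indole genes, with a median of -0.20. Genes of a branch were read on the same arrays and can move together, so these are not counts of independent observations. Over all features 53.7% lay above 0, with a median of 0.02, and 57.3% of the features whose mean was above the low mode of the intensities (log2 7.09), as that of 43 of the 45 genes was. At an unadjusted p under 0.05, limma gave 1 member higher (IMD1, of aliphatic chain elongation) and 1 lower (CYP81F2, of indole ring hydroxylation), against 2.41% and 1.91% of all features, or 4.32% in both directions.

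**Figure D1:**
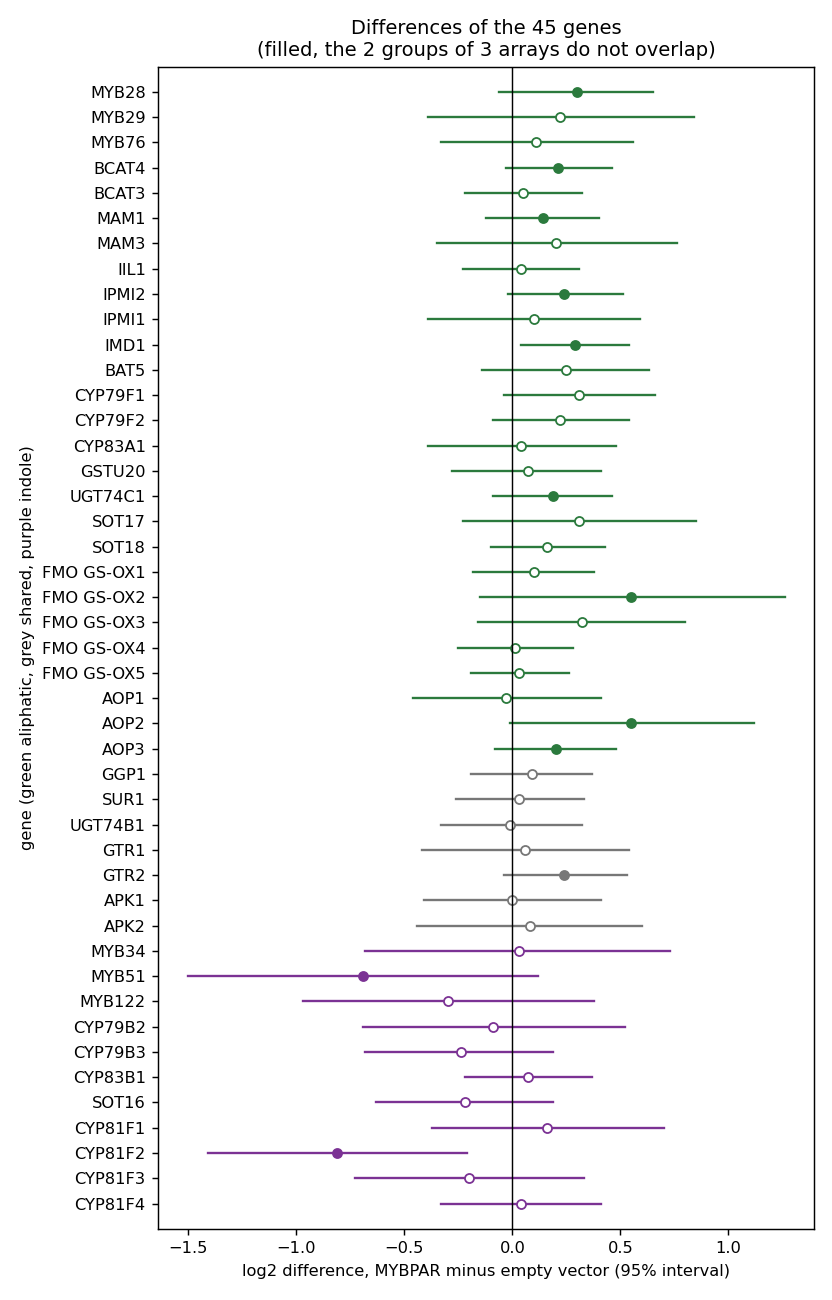
Log2 difference (MYBPAR minus empty vector, x axis) of each of the 45 genes with its 95% interval from limma; green marks aliphatic, grey shared and purple indole genes, and filled points mark genes whose groups do not overlap. Of the aliphatic points 26 of 27 lie right of 0, while CYP81F2 at -0.81 and MYB51 at -0.69 lie farthest left.

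The arrays differed in ways that the groups do not define or define only in part, and some of these differences ran alongside the values below. The mean of the aliphatic genes relative to the empty vector mean was lowest in empty vector replicate 1 (-0.21), while the other controls stood at 0.14 and 0.07 (replicates 2 and 3). Empty vector replicate 1 was the lowest of the 3 controls for 23 of 27 aliphatic genes, as it was for 30.5% of the features above the low mode. The mean of 7 floral organ genes stood at -0.75, 0.71 and 0.04 in empty vector replicates 1, 2 and 3, and at 0.18, 0.93 and 1.04 in MYBPAR replicates 1, 2 and 3. These means overlapped between the groups, but the log2 difference was above 0 for 7 of the 7 genes, with a median of 0.73. In MYBPAR replicate 2 the morning clock genes CCA1, LHY and PRR9 had a mean of -4.64 on the same scale, against -1.06 to 0.80 on the other arrays. Of 9 jasmonate genes, all above the low mode, the list mean of the log2 values was 11.58 to 12.42 in the MYBPAR lines and 12.25 to 12.47 in the controls, with MYBPAR replicate 3 the lowest. The log2 difference was below 0 for 6 of the 9 and above 0 for 3 (LOX2, OPR3 and VSP2). Leaf markers (5 of 5), root markers (5 of 6, WOX5 below) and floral markers (7 of 7) lay above the low mode. The list means were 12.35 to 13.71 in the MYBPAR lines against 13.44 to 13.60 in the controls for leaf, 9.19 to 9.63 against 9.14 to 9.18 for root and 9.48 to 10.34 against 8.55 to 10.02 for floral markers. The leaf mean of 12.35 was that of MYBPAR replicate 2. There CAB2 and LHCB2.1 stood at -3.30 and -2.74 relative to the control mean, but RBCS1A, CAB1 and LHCB4.1 at 0.18, -0.02 and 0.08. The part of these tissue markers in the glucosinolate values was not tested, and the floral covariate used below cannot settle it. In such bulk RNA, fewer cells of a type and less RNA per cell cannot be told apart. The grapevine transcript itself was not read. BAN, a proanthocyanidin synthesis gene used here as a check of the labels, had log2 values of 11.69, 10.63 and 10.43 in the MYBPAR lines and 4.67 to 4.76 in the controls.

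**Figure D2:**
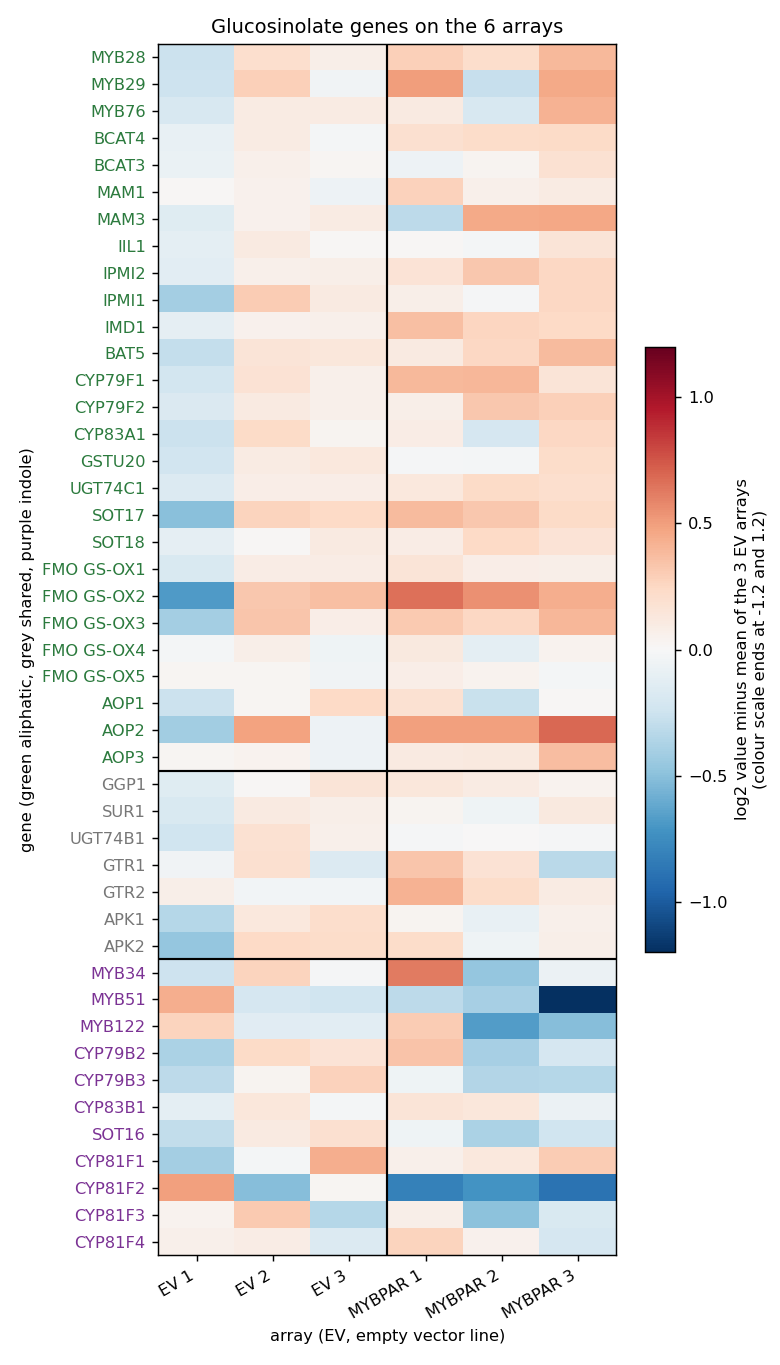
Each row is a gene and each column an array; the colour gives the log2 value minus the mean of the 3 empty vector (EV) arrays. EV 1 is pale to dark blue for most aliphatic genes, with FMO GS-OX2 the darkest, and MYB51 in MYBPAR 3 lies beyond the end of the colour scale.

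The regulators of the aliphatic branch had slightly higher means in the MYBPAR lines. MYB28 (AT5G61420), the main activator of methionine-derived glucosinolates, had log2 values of 12.38, 12.31 and 12.49 in MYBPAR replicates 1, 2 and 3, and of 11.84, 12.29 and 12.17 in empty vector replicates 1, 2 and 3. The groups did not overlap, by a margin that rested on the gap between MYBPAR replicate 2 and empty vector replicate 2. Its log2 difference was 0.30 (SE 0.15), and 0.16 without empty vector replicate 1. A dimmer MYB28 feature had 0.43 (SE 0.16) with overlapping groups. MYB29 (AT5G07690), which acts beside MYB28, had 12.80, 12.02 and 12.75 against 12.05, 12.59 and 12.26. MYB76 (AT5G07700), its chromosomal neighbour and a further activator, had 10.38, 10.07 and 10.69 against 10.07, 10.37 and 10.36. For both genes MYBPAR replicate 2, in which morning clock genes were low, had the lowest value of all 6 arrays or tied for it. Their log2 differences were 0.22 (SE 0.26) and 0.11 (SE 0.19), and without MYBPAR replicate 2 they were 0.48 and 0.27.

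Among the indole regulators MYB51 (AT1G18570) stood apart. MYB51 activates indole glucosinolate genes, mainly in shoots, and responds to wounding and microbes. It had 12.42, 12.33 and 11.35 in MYBPAR replicates 1, 2 and 3 against 13.16, 12.52 and 12.49 in the controls. The groups did not overlap, and MYBPAR replicate 3, which also had the lowest jasmonate mean, was the lowest. The log2 difference was -0.69 (SE 0.34, 95% interval -1.50 to 0.12), -0.35 without MYBPAR replicate 3 and -0.29 with the floral mean as a covariate. MYB34 (AT5G60890), an indole activator prominent in roots, had 11.11, 10.04 and 10.42 against 10.24, 10.76 and 10.48, so that the MYBPAR lines held both the highest and the lowest value. Its log2 difference was 0.03 (SE 0.29) and turned to -0.26 without MYBPAR replicate 1. MYB122 (AT1G74080), a further indole activator, lay in the low mode, where a signal may be background, with 7.18, 6.21 and 6.37 against 7.16, 6.75 and 6.75. Its log2 difference was -0.30 (SE 0.28), -0.59 without MYBPAR replicate 1 and -0.11 without MYBPAR replicate 2, and it turned to 0.07 with the floral mean as a covariate.

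Genes of methionine chain elongation lay above 0 in 9 of 9 cases, with a median log2 difference of 0.20. IMD1 (AT5G14200), the isopropylmalate dehydrogenase of the cycle, had 13.82, 13.73 and 13.71 in the MYBPAR lines against 13.36, 13.52 and 13.52. All 3 MYBPAR values were above all 3 controls, with a log2 difference of 0.29 (SE 0.10, 95% interval 0.04 to 0.54; limma, unadjusted p = 0.0310, adjusted p = 0.915). The 2 other features of IMD1, near or in the low mode, had log2 differences of 0.41 (SE 0.22) and 0.38 (SE 0.22). BCAT4 (AT3G19710), the aminotransferase that starts the cycle from methionine, had 13.89, 13.92 and 13.93 against 13.62, 13.81 and 13.69. Its log2 difference was 0.21 (SE 0.10) with no overlap between the groups. IPMI2 (AT2G43100), a small subunit of the isomerase step, had 13.47, 13.63 and 13.56 against 13.17, 13.36 and 13.38, again without overlap, and a log2 difference of 0.24 (SE 0.11).

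The remaining chain elongation genes stood between 0.04 and 0.25. BAT5 (AT4G12030), the plastid transporter that carries the keto acids, had 0.25 (SE 0.16). MAM1 (AT5G23010), the synthase whose condensation lengthens the chain, had 0.14 (SE 0.11) without overlap, and its neighbour MAM3 (AT5G23020), which can make the longest chains, had 0.20 (SE 0.23). The MAM3 values in the MYBPAR lines were uneven, with 12.17 in replicate 1 against 12.93 and 12.94 in replicates 2 and 3. IPMI1 (AT3G58990) had 0.10 (SE 0.20), BCAT3 (AT3G49680) 0.05 (SE 0.11) and IIL1 (AT4G13430), the large subunit of the isomerase, 0.04 (SE 0.11). The highest upper 95% bound among the 9 genes was 0.76, for MAM3. Across the 45 genes, 10 had all MYBPAR values above all controls and 2 had them below, against 6.32% and 3.67% of all features (9.99% in both directions) and 7.52% and 3.62% of the features above the low mode.

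At the entry into the core pathway both aliphatic genes had differences above 0 and both indole genes below 0, all with 95% intervals that included 0. CYP79F1 (AT1G16410), which turns chain-elongated methionine into oximes, had 11.92, 11.94 and 11.69 in the MYBPAR lines against 11.31, 11.70 and 11.59. MYBPAR replicate 3 lay within the control range and the other lines above it. The log2 difference was 0.31 (SE 0.14), and 0.20 without empty vector replicate 1. CYP79F2 (AT1G16400), the adjacent gene for long-chain substrates, had 12.52, 12.77 and 12.74 against 12.28, 12.56 and 12.51, with a log2 difference of 0.22 (SE 0.13). CYP79B2 (AT4G39950), which makes the tryptophan-derived oxime, had 12.44, 11.69 and 11.90 against 11.71, 12.32 and 12.25, with full overlap and a log2 difference of -0.09 (SE 0.25). That sign turned without MYBPAR replicate 2 (0.07), without empty vector replicate 2 (0.03) and with the clock covariate described below (0.10). CYP79B3 (AT2G22330), its partner in the same step, had 13.34, 13.04 and 13.05 against 13.08, 13.42 and 13.67 and a log2 difference of -0.24 (SE 0.18), between -0.40 and -0.11 when any 1 array was left out. In both CYP79B genes MYBPAR replicate 1 was the highest of its group.

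The CYP83 genes, which take up the oxime, and the shared lyase had differences smaller than their standard errors. CYP83A1 (AT4G13770), which oxidises aliphatic oximes, had 13.96, 13.67 and 14.12 against 13.60, 14.10 and 13.90, a log2 difference of 0.04 (SE 0.18). CYP83B1 (AT4G31500), its counterpart for the indole oxime and a gate between glucosinolates and auxin, had 13.54, 13.53 and 13.32 against 13.27, 13.53 and 13.37, a log2 difference of 0.07 (SE 0.12). SUR1 (AT2G20610), the lyase that both branches need, had 13.49, 13.41 and 13.58 against 13.28, 13.57 and 13.53, a log2 difference of 0.03 (SE 0.12). Its 95% interval ran from -0.26 to 0.33, and larger differences lie outside it. GSTU20 (AT1G78370), a glutathione transferase assigned to the aliphatic branch, had 0.07 (SE 0.14), and GGP1 (AT4G30530), the peptidase that trims the glutathione conjugate, had 0.09 (SE 0.12). Of the glucosyltransferases, UGT74B1 (AT1G24100) of both branches had -0.01 (SE 0.13) and UGT74C1 (AT2G31790) of the aliphatic branch 0.19 (SE 0.11) without overlap.

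The sulfotransferases that finish the core had signs that differed by branch. SOT17 (AT1G18590) and SOT18 (AT1G74090), which prefer aliphatic substrates, had log2 differences of 0.31 (SE 0.22) and 0.16 (SE 0.11). SOT16 (AT1G74100), which prefers the indole substrate and sits next to SOT18 on the chromosome, had -0.22 (SE 0.17). None of the 3 had groups without overlap. Over the whole core, 7 of 7 aliphatic genes lay above 0 with a median of 0.19, and 1 of 4 indole genes with a median of -0.15.

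Side chain genes held the largest differences of either branch. Of the aliphatic side chain genes 7 of 8 lay above 0 (median 0.15), and of the indole ones 2 of 4 (median -0.08). CYP81F2 (AT5G57220), the hydroxylase that opens the way to methoxylated indole glucosinolates used in defence against fungi and aphids, had 9.12, 9.21 and 9.04 in the MYBPAR lines and 10.42, 9.43 and 9.95 in the controls. The MYBPAR lines lay close together below every control, while the controls ranged over almost a log2 unit. The log2 difference was -0.81 (SE 0.25, 95% interval -1.41 to -0.21; limma, unadjusted p = 0.0162, adjusted p = 0.915), which corresponds to 1.75-fold lower. It stayed below 0 in each fit that left out 1 array, between -1.06 without empty vector replicate 2 and -0.57 without empty vector replicate 1. Adding the floral mean of each array as a covariate gave -0.46 (limma, unadjusted p = 0.0698). The other hydroxylases of this family had 0.16 (SE 0.22) for CYP81F1 (AT4G37430), -0.20 (SE 0.22) for CYP81F3 (AT4G37400) and 0.04 (SE 0.15) for CYP81F4 (AT4G37410).

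On the aliphatic side, AOP2 (AT4G03060) and FMO GS-OX2 (AT1G62540) had the highest differences, and empty vector replicate 1 had the lowest value of each. AOP2, an alkenyl-forming dioxygenase gene that RefSeq lists as a transcribed pseudogene in Columbia, had 12.41, 12.41 and 12.61 against 11.50, 12.40 and 11.86. Empty vector replicate 2 lay just below the lowest MYBPAR value. The log2 difference was 0.55 (SE 0.23), and 0.34 without empty vector replicate 1. It was 0.21 with the floral mean as a covariate. FMO GS-OX2, an S-oxygenase that turns methylthioalkyl into methylsulfinylalkyl glucosinolates, had values from 11.89 (replicate 3) to 12.11 (replicate 1) in the MYBPAR lines against 10.77, 11.77 and 11.81 in the controls. The groups did not overlap. Its log2 difference of 0.55 (SE 0.29) became 0.21 without empty vector replicate 1 and 0.24 with the floral covariate. The other S-oxygenases FMO GS-OX1 (AT1G65860), FMO GS-OX3 (AT1G62560), FMO GS-OX4 (AT1G62570) and FMO GS-OX5 (AT1G12140) had log2 differences of 0.10 (SE 0.12), 0.32 (SE 0.20), 0.01 (SE 0.11) and 0.03 (SE 0.09). AOP1 (AT4G03070) had -0.03 (SE 0.18), the 1 aliphatic gene below 0. AOP3 (AT4G03050), the hydroxyalkyl-forming relative next to AOP2, lay in the low mode with 5.04, 5.05 and 5.30 against 4.95, 4.97 and 4.87 and had 0.20 (SE 0.11). Its other feature was dimmer still. Whether the probes separate such similar neighbours (the AOP genes, FMO GS-OX2 to FMO GS-OX4, CYP79F1 and CYP79F2) was not tested.

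**Figure D3:**
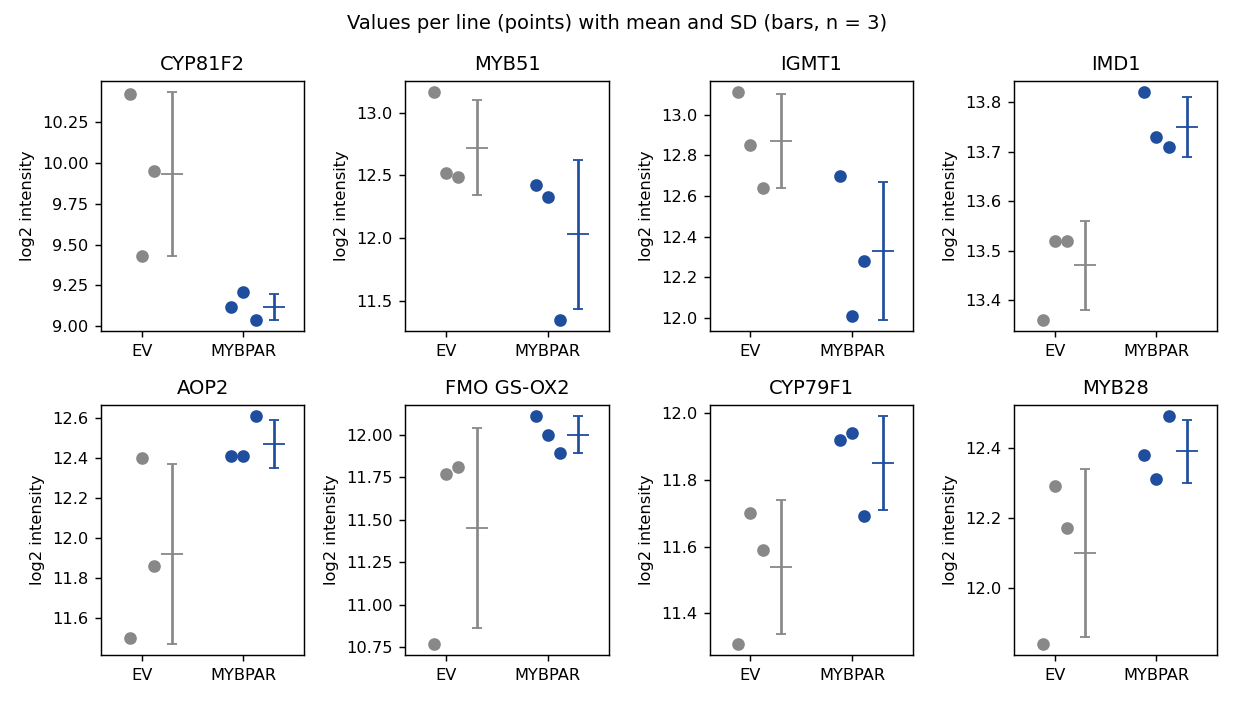
Log2 intensity (y axis, a separate range in each panel) of 8 genes in the empty vector (EV) and MYBPAR lines; points are replicates 1, 2 and 3 from left to right and bars give mean and SD (n = 3). CYP81F2 and MYB51 lie lower in all 3 MYBPAR lines, and the low EV points of AOP2, FMO GS-OX2, CYP79F1 and MYB28 are all replicate 1.

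The transporters and the sulfate donor genes serve both branches. GTR1 (AT3G47960), an importer that loads glucosinolates into the phloem, had 13.58, 13.42 and 12.93 in the MYBPAR lines against 13.21, 13.44 and 13.09, a log2 difference of 0.06 (SE 0.20) with full overlap. GTR2 (AT5G62680), which works with GTR1 to move glucosinolates to seeds, had 13.75, 13.56 and 13.44 against 13.41, 13.30 and 13.31. Its groups did not overlap and its log2 difference was 0.24 (SE 0.12), between 0.16 and 0.32 when any 1 array was left out. APK1 (AT2G14750) and APK2 (AT4G39940), the kinases that supply activated sulfate to the sulfotransferases, stood at a log2 difference of -0.00 (SE 0.17) and 0.08 (SE 0.21). Both were lowest in empty vector replicate 1 (12.42 for APK1 and 11.67 for APK2).

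Set against each other, the aliphatic median exceeded the indole median by 0.40. Class means by array, relative to the control mean, were 0.18, 0.14 and 0.26 in MYBPAR replicates 1, 2 and 3 for the aliphatic genes. The controls were at -0.21, 0.14 and 0.07, so that MYBPAR replicate 2 and empty vector replicate 2 shared a value. For the indole genes the MYBPAR means were 0.05, -0.32 and -0.34 and the control means -0.04, 0.03 and 0.02. MYBPAR replicate 1 thus had the highest indole mean of all 6 arrays, while replicates 2 and 3 had the lowest. The excess of aliphatic over indole means was 0.13, 0.46 and 0.60 in the MYBPAR lines and -0.17, 0.12 and 0.05 in the controls, without overlap but with a gap of about the rounding between MYBPAR replicate 1 and empty vector replicate 2. No p is given for these means, since the genes were chosen with earlier results of these data known.

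**Figure D4:**
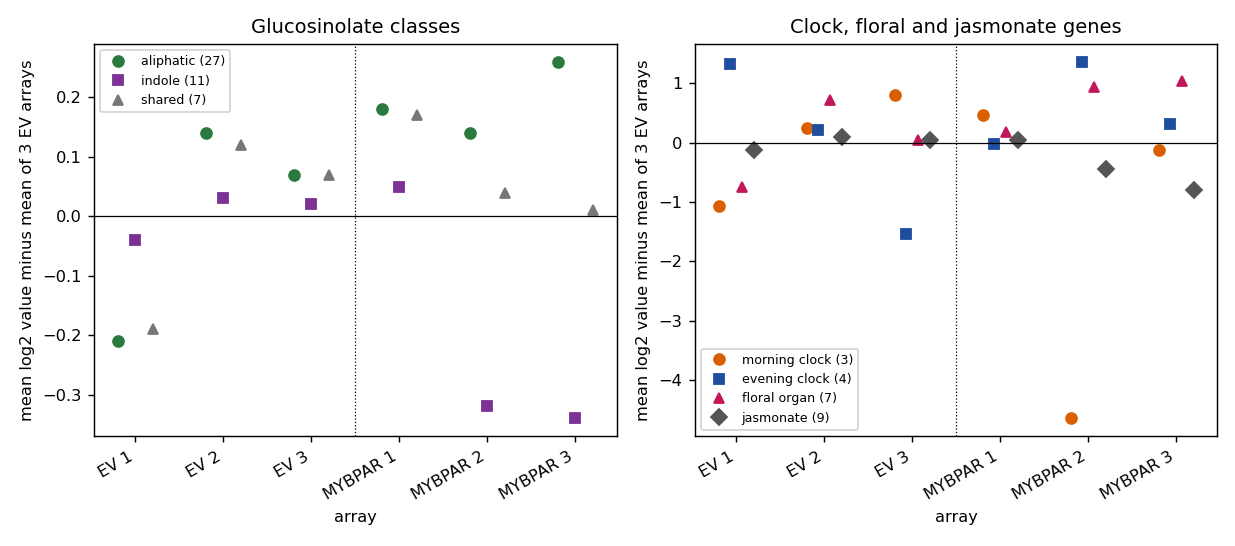
Mean log2 value of each gene class minus the mean of the 3 empty vector (EV) arrays, by array, with the number of genes in brackets. Left, the aliphatic mean is lowest in EV 1 (-0.21) and the indole mean is low in MYBPAR 2 and MYBPAR 3 (-0.32 and -0.34); right, clock, floral and jasmonate genes on the same arrays, on a wider axis.

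The class medians moved with single arrays. The aliphatic median was 0.11 without empty vector replicate 1, with 22 of 27 genes above 0, and it was 0.07 with the floral mean as a covariate, with 19 of 27 above 0. The indole median was -0.06 without MYBPAR replicate 2, -0.05 without empty vector replicate 2, -0.11 without empty vector replicate 3 and -0.31 without MYBPAR replicate 1. With the clock score as a covariate (mean of 3 morning genes minus mean of 4 evening genes) the medians were 0.21 and -0.10. The aliphatic median stayed above and the indole median below 0 whichever of the 6 arrays was left out, but these fits share most of their arrays. The difference between the medians ranged from 0.24 without MYBPAR replicate 2 to 0.53 without MYBPAR replicate 1. Class medians taken array by array had a pooled SD between replicates of 0.12 (aliphatic), 0.18 (indole) and 0.20 (their difference). With the floral covariate the indole median was -0.14 and the difference between the class medians 0.21. Both covariates were read from the same 6 arrays as the genes. The floral genes had log2 differences above 0 in 7 of 7 cases, so the floral fit cannot tell flowering stage and transgene apart. The part that flowering stage and time of day have in these values was not tested.

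**Figure D5:**
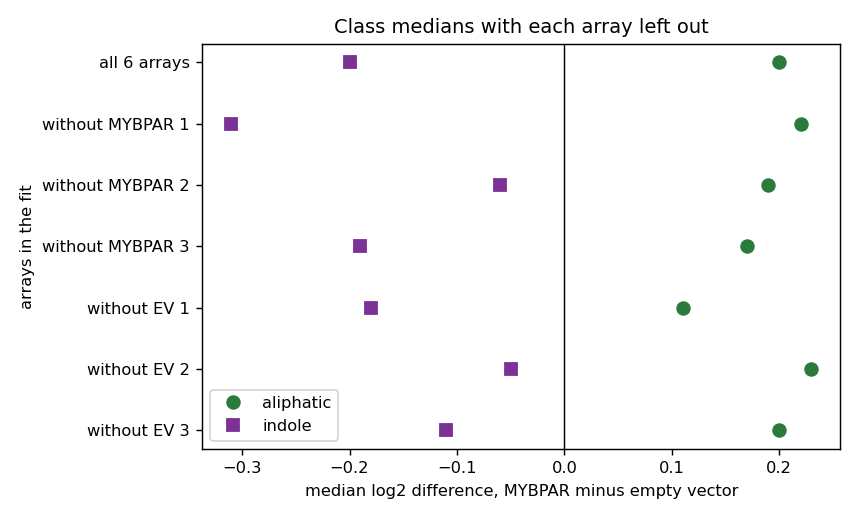
Median log2 difference (x axis) of the 27 aliphatic (green circles) and 11 indole genes (purple squares) with all 6 arrays and with each array left out. The aliphatic median spans 0.11 to 0.23 and the indole median -0.31 to -0.05.

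The same contrast was made step by step, pairing each aliphatic gene with each indole gene of the same kind within an array. Of 16 such pairs among the MYB regulators, CYP79, CYP83 and sulfotransferase genes, 15 had a larger log2 difference for the aliphatic gene, 14 without MYBPAR replicate 3 and 13 with the floral covariate. The pairs share genes and are not independent, and their count restates the single-gene differences given above rather than adding to them. The log2 difference of CYP79F1 exceeded that of CYP79B3 by 0.56, the gene-to-gene gap relative to the control mean being 0.44, 0.75 and 0.48 in the MYBPAR lines against 0.08, 0.14 and -0.22 in the controls. For MYB28 over MYB51 the excess was 0.99, with 0.59, 0.60 and 1.77 against -0.70, 0.40 and 0.30. For SOT17 over SOT16 it was 0.53, also without overlap. Only these 3 of the 16 pairs had groups without overlap, and in the others the groups overlapped. CYP83A1 against CYP83B1 had -0.03. The pairs were formed after the data had been seen, and no p is given for them.

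Genes around the pathway, from a list of 53 non-members, passed the test across all features in 0 cases (limma). At an unadjusted p under 0.05, 2 of the 53 were higher and 1 was lower, near the 2.41% and 1.91% of all features. The log2 difference was above 0 for 35 of 53, with a median of 0.07, against 53.7% of all features and 57.3% of those above the low mode. IGMT1 and IGMT2, methyltransferase genes of the step after CYP81F2, had differences below 0 with overlapping groups. IGMT1 had 12.70, 12.01 and 12.28 in the MYBPAR lines against 13.11, 12.85 and 12.64, a log2 difference of -0.54 (SE 0.21; limma, unadjusted p = 0.0420). IGMT2 had -0.35 (SE 0.15), while IGMT5, a methyltransferase of the other ring position, had 0.09 (SE 0.29). PEN2, the atypical myrosinase that acts on the methoxylated product, had 13.39, 13.45 and 13.52 against 13.67, 13.55 and 13.53. Its groups did not overlap, by a margin near the rounding, and its log2 difference was -0.13 (SE 0.10). Of the 53 non-members, 1 (PEN2) had all MYBPAR values below all controls and 6 had them above, against 3.67% and 6.32% of all features.

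PAD3, of the synthesis of camalexin, which starts from the same tryptophan-derived oxime, had the opposite sign. It stood at 10.25, 10.69 and 10.73 against 9.98, 10.13 and 9.63, a log2 difference of 0.64 (SE 0.19; limma, unadjusted p = 0.0142, adjusted p = 0.915). SCPL17, an acyltransferase of seed glucosinolates, had 0.92 (SE 0.22; limma, unadjusted p = 0.00531) with all values in the low mode. TGG4, a root myrosinase gene, had -0.59 (SE 0.24), and CYP79A2, of benzyl glucosinolate synthesis and in the low mode, 0.50 (SE 0.22).

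By kind, the median log2 differences of the non-members were near 0, camalexin apart. Of 8 regulators 6 lay above 0 (median 0.07), of 14 synthesis genes 10 (median 0.09) and of 2 camalexin genes 2 (median 0.49). The camalexin genes were PAD3, given above, and CYP71A13, which had 0.33 (SE 0.30) with overlapping groups. Of 14 breakdown genes 7 lay above 0 (median -0.02), of 11 sulfate uptake and assimilation genes 7 (median 0.11) and of 4 tryptophan genes 3 (median 0.10). MYC2, a jasmonate-linked bHLH factor that works with the glucosinolate MYBs, had 13.86, 13.44 and 12.71 against 14.05, 13.96 and 13.53. It was lowest in MYBPAR replicate 3, like MYB51 and the mean of the jasmonate genes, and its log2 difference was -0.51 (SE 0.31). Its relatives MYC3 and MYC4 had 0.10 (SE 0.12) and 0.23 (SE 0.15). The part of jasmonate in the MYC2 and MYB51 values was not tested.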

How the data were processed

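Per the submitters' processing notes the authors ran RMA, and each deposited array holds 1 linear RMA intensity per feature. Neither the version of RMA nor the probe annotation is named here by any source used. Taking log2 of the intensities gave the deposited log2 table of the series to within 1.66e-06. RMA forces the arrays to one distribution, which hides a shift shared by most transcripts. Arrays give no depth, and having 3 per group limits the precision.

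Groups and replicates come from the labels. Differences were fitted on all 37118 features with limma 3.58.1 under R 4.3.3, using lmFit, then eBayes without trend or robust options, no filter and no covariate. P-values were Benjamini-Hochberg adjusted over all features, with a threshold of 0.05. A locus with several features was represented by the one with the highest mean. The fit was first run on simulated data with independent noise in each feature. Those data held no shifts shared by many genes of an array, so they cannot show how the fit behaves with such shifts. Feature means had a low and a high mode, parted by a density minimum at log2 7.09. Members, classes, other lists and tests were chosen with earlier results of these data known, and the pairing of genes by step was added after seeing the data.

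Values in every array were given for the MYB, CYP79, CYP83, SUR1 and GTR genes and the 12 members with the smallest p (FMO GS-OX2 by its range in the MYBPAR lines), and log2 differences for the others. The 6 non-members with the smallest p were named, and the MYC genes, IGMT5, PEN2 and CYP71A13 were chosen after their values were seen. Of the 32627 loci, 31993 are in the RefSeq table of TAIR10.1, used for names and neighbours only, since no build is named for the arrays. Alternatives were a repeated quantile normalization, median centring, the series table, other moderation (trend and robust, or none), leaving out the dimmest 25% of features, a pseudocount of 32, weighting of arrays, a block on replicate number, means over features, clock and floral covariates, a narrower aliphatic class, and each array left out.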

Additional observations from a re-analysis of the deposited data

How the results depend on the processing

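No member passed the test across all features under any alternative in which it was tested. Counts of members at an unadjusted p under 0.05 (2 by limma as reported, beside 1602 of all features) were 7 with trend and robust moderation (beside 1598), 4 with no moderation (1476), 5 with log2(value + 32) (1771), 4 with means over the features of a locus (1437 of all loci), 0 with the floral covariate (2124) and 1 to 3 when 1 array was left out (862 to 3038). Features called over the whole array numbered 0 with no moderation, with the replicate block, with the clock covariate and with the floral covariate (1476, 2189, 1206 and 2124 at an unadjusted p under 0.05), and 0 to 3 when 1 array was left out. Equal replicate numbers share only a number (correlations of deviations 0.30, -0.06 and 0.24), and the block left the members called at 0. The aliphatic median moved to 0.07 with the floral covariate. Signs were followed singly for the MYB, CYP79, CYP83, SUR1 and GTR genes and the members with the smallest p. Among these, signs turned for MYB34 (-0.07), CYP83B1 (-0.00) and GTR1 (-0.08) with array weights and for CYP79B2 (0.10) with the clock covariate. With the floral covariate they turned for MYB76 (-0.01), MYB122 (0.07), CYP83A1 (-0.12) and SUR1 (-0.08). Other members turned too, as the counts above 0 show. These were 19 of 27 aliphatic genes with the floral covariate, and 25 of 27 aliphatic and 1 of 11 indole genes with array weights, against 26 and 4 as reported. Leaving out 1 array gave log2 differences of -0.26 to 0.27 for MYB34, -0.07 to 0.25 for GTR1, -0.30 to 0.07 for CYP79B2, -0.04 to 0.27 for MYB76, -0.09 to 0.17 for CYP83A1 and -0.06 to 0.09 for SUR1. The cause was not tested. AOP3 has no value with the dimmest 25% left out. The median 95% half-width of a log2 difference was 0.38 over the 45 genes, wider than the class medians of 0.20 and -0.20, so single differences of that size were mostly not detectable with 3 arrays per group.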
